A study of Mus musculus with 8 samples.

Results

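Transcripts of 52 genes of mitosis and chromosome segregation were followed by RNA sequencing in a pair of regulatory T cell (Treg) populations sorted from mouse lymph nodes. The genes were taken by name (regulators of entry into mitosis, spindle, kinetochore and cytokinesis genes) and looked up by Ensembl identifier. All 52 were present among the 47069 Ensembl genes that both deposited tables hold. Tregs are CD4 T cells that hold other immune cells in check, and Foxp3 is the transcription factor that defines them. All mice were of the C57BL/6 strain, 6 to 8 weeks old, and carried both the 35EbiT reporter, which marks cells with Thy1.1, and a GFP knock-in at Blimp1. The sort for Ebi3-Treg took Thy1.1+Blimp1- cells, and the sort for Blimp1-Treg Thy1.1-Blimp1+ cells. Cells of both kinds were CD4-positive, CD25-positive and low in CD62L, so neither population held the CD62L-high Tregs of the same nodes. The labels do not say how many mice each library came from. Each population had 4 libraries, numbered 1 to 4, with values in FPKM (fragments per kilobase of gene and per M of fragments, where M stands for mega). Replicates 1 and 2 of both populations were in the first table and replicates 3 and 4 in the second.

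In a dividing cell the kinase CDK1, switched on by cyclins A and B, drives entry into mitosis. Condensin and topoisomerase II compact and untangle the chromosomes, kinetochores built on the centromeres attach them to the spindle, and the spindle checkpoint holds back the anaphase-promoting ubiquitin ligase until every chromosome is attached. The central spindle then directs the cleavage of the cell. Many of these genes are kept silent in resting cells by the DREAM complex and are transcribed in G2 and M phase under the factors B-Myb and FoxM1, in part through a promoter element called CHR (cell cycle genes homology region, TTTGAA) and the NF-Y box (CCAAT).

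Libraries were estimated to hold 25.6, 20.2, 13.3 and 22.1 M fragments in Ebi3-Treg 1 to 4 and 31.3, 19.5, 19.2 and 14.7 M in Blimp1-Treg 1 to 4. These depths are approximate, as they were inferred from the FPKM values with GRCm38 exon lengths, whereas the processing notes name mm9. With exon lengths of the GRCm38 annotation, the lowest value of any of the 52 genes stood for about 36 reads (Ube2c), and amplified reads are not independent molecules, so counting error is the least error of these values. Of 6 Treg and T cell markers 0 passed the test, and Foxp3 was at 182 to 375 FPKM in the Ebi3-Treg libraries, against 184 to 406 FPKM in the Blimp1-Treg libraries. Cd3e, a subunit of the T cell receptor complex, and the inhibitory receptor gene Ctla4 were lower in Ebi3-Treg for each of the 4 replicate numbers, and passed with the replicate number as a block in limma (adjusted p = 0.00876 and 0.0115). Cd3e was at 626 to 852 FPKM in the Ebi3-Treg libraries, against 872 to 1126 FPKM in the Blimp1-Treg libraries, without overlap, and their part in the mitotic difference was not tested. The genes that gave the sort its names were in place, with Ebi3 at 20.1 to 46.6 FPKM in the Ebi3-Treg libraries, against 4.94 to 11.7 FPKM in the Blimp1-Treg libraries, and Prdm1, which encodes Blimp1, at 1.94 to 4.33 FPKM in the Ebi3-Treg libraries, against 52.2 to 121 FPKM in the Blimp1-Treg libraries. Transcripts of other cells were present as well. The summed level of 6 B cell markers was 48.3 to 236 FPKM in the Ebi3-Treg libraries, against 31.2 to 164 FPKM in the Blimp1-Treg libraries, highest in replicate 1 of both. Xist, which female cells transcribe, did not exceed 0.0750 FPKM in any library of the first table and lay between 18.5 and 24.4 FPKM in the second, so the table and the sex of the mice cannot be told apart.

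Mitosis genes were lower in Ebi3-Treg. Of the 52 genes, 51 reached 1 FPKM in at least 4 of the 8 libraries and were tested, and 28 of these were lower, 0 higher and 23 did not pass at an adjusted p of 0.05. Among all 12273 genes tested, 2.93% were lower and 3.37% higher by the same rule. Of the 28 genes 24 had a log2 fold change under -1, where 2.1% of all genes were called and that low. The test was limma on log2(FPKM + 1) with the table as a term and Benjamini-Hochberg adjustment over all genes tested, and every log2 change and adjusted p comes from it unless another fit is named. The median log2 fold change, Ebi3-Treg minus Blimp1-Treg, was -1.09 over the 51 genes and 0.07 over all genes tested. Of the 51 genes 50 had a negative log2 fold change, against 40.8% of all genes tested. With the replicate number as a block, 43 were lower and 0 higher, where 8.94% of all genes were lower and 13.5% higher. The block treats all 4 numbers as pairs, but the data pair only numbers 1 and 2 and not 3 and 4. This limit holds for every value given under the block. With limma and no filter on low values, 20 of the 52 were lower. A bulk library cannot tell fewer dividing cells from less mitotic RNA in each dividing cell.

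**Figure D1:**
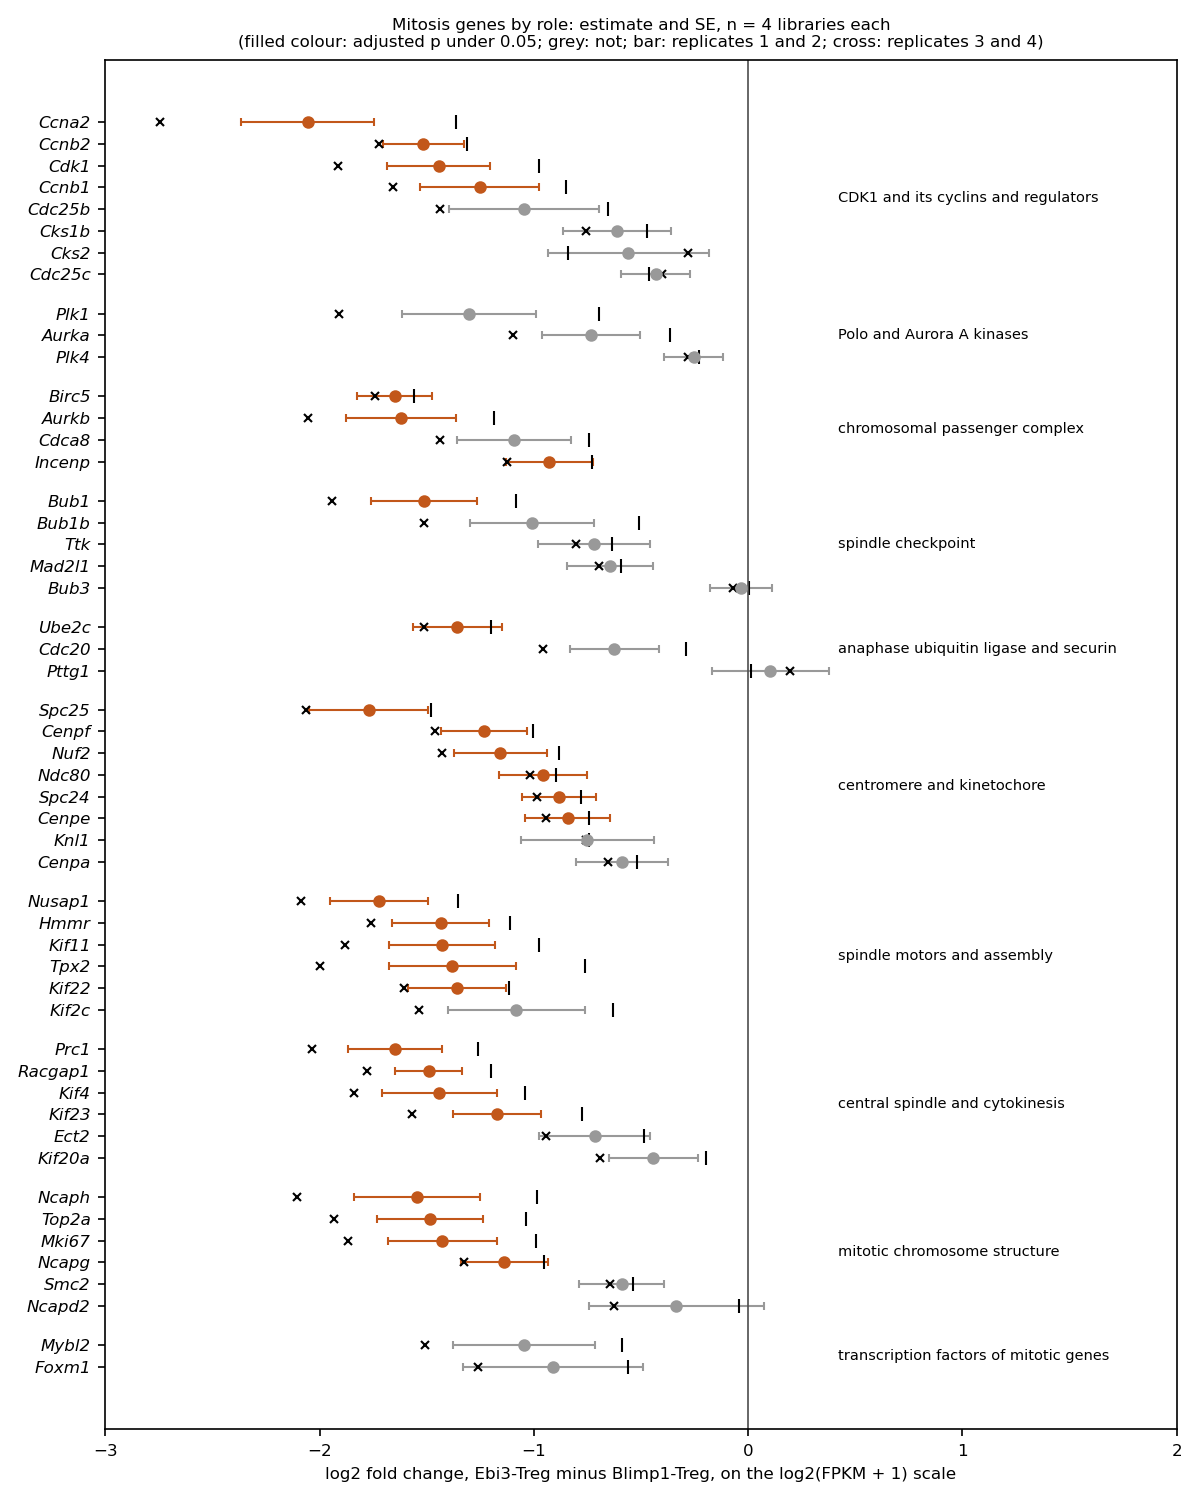
Log2 fold change (x axis, Ebi3-Treg minus Blimp1-Treg, in units of log2(FPKM + 1)) of the 51 tested mitosis genes, grouped by role (y axis). Points are estimates over both tables with SE (n = 4 libraries per population), coloured where the adjusted p is under 0.05 (28 genes) and grey elsewhere, with bars for replicates 1 and 2 alone and crosses for replicates 3 and 4 alone. Ccna2 has the lowest estimate (-2.06) and Pttg1 the highest (0.10).

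Promoter sequences of several members are shown here, because most of the members with a listed promoter share short elements at their starts. The windows come from RefSeq (build GRCm38.p6), hold 210 bases around the listed start and run 5′ to 3′ in the direction of the gene. Capitals mark the CHR letters (TTTGAA, and its variant TTTAAA), the CCAAT box and the E2F letters (TTGGCGC, and as a variant TTCGCGC), each on either strand. Ccnb2, Cdk1, Top2a and Racgap1 were lower in Ebi3-Treg and hold TTTGAA and CCAAT. Of the windows printed, only that of Cdk1 holds E2F letters. Nusap1 was lower and holds none of the marked letters in this window. Bub3, shown at the first of its 2 listed starts, did not pass the test and holds TTTGAA and CCAAT.
Ccnb2 (chr9:70421530-70421739, minus strand): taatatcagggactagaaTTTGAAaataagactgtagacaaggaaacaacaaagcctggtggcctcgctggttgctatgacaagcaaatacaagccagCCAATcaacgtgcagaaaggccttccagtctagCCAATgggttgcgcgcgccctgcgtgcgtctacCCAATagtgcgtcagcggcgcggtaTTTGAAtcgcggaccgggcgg
Cdk1 (chr10:69352888-69353097, minus strand): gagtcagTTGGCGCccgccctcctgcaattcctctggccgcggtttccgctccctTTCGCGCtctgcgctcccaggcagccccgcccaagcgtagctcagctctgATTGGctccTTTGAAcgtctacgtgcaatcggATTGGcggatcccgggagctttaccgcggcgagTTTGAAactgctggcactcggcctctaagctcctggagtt
Top2a (chr11:99024165-99024374, minus strand): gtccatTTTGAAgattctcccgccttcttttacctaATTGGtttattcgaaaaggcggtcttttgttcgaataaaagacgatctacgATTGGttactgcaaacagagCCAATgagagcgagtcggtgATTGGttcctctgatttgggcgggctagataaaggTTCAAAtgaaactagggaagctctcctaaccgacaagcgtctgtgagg
Racgap1 (chr15:99651632-99651841, minus strand): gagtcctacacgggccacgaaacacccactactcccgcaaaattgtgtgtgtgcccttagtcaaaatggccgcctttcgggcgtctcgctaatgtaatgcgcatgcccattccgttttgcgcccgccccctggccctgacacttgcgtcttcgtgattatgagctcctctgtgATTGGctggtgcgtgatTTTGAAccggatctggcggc
Nusap1 (chr2:119618113-119618322, plus strand): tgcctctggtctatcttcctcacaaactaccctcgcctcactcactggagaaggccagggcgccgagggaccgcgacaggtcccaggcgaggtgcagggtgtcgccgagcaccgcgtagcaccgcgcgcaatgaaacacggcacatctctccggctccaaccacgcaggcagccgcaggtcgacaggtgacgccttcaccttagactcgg
Bub3 (chr7:131560185-131560394, plus strand): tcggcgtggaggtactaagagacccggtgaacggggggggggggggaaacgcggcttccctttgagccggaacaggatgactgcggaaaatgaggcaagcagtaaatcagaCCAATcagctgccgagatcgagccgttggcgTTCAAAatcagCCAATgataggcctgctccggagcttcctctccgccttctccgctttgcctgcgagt

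In Ccnb2 the 3 CCAAT boxes begin 87, 54 and 21 bases before the start, and TTTGAA begins 167 bases before the start and 4 bases after it. Cdk1 has TTTGAA 71 and 15 bases before the start, and E2F letters 178 and 130 bases before it. Of the 52 genes 44 had a promoter in the RefSeq table. In the whole window of 250 bases before to 50 after the start, counting a gene if any of its listed starts holds the letters, 31 of the 44 (70.5%) held TTTGAA on either strand, against 1296 of 8840 genes tested that had a promoter (14.7%). From 100 bases before the start on, a window chosen after the data were seen, it was 65.9% of the members and 5.93% of the genes tested. CCAAT was present in 72.7% of the members and 43.3% of the genes tested. At least 2 copies of it stood in 22 of the 44 members and in 1524 of the 8840 genes tested (17.2%). E2F letters were present in 15.9% of the members and 8.40% of the genes tested. Of the 33 DNA replication genes with a promoter, 36.4% held E2F letters and 18.2% TTTGAA. Within the members, the median log2 fold change was -1.16 in the 30 tested genes with TTTGAA and -1.05 in the 13 without it. A match of letters is a description of the window and no evidence of binding.

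**Figure D2:**
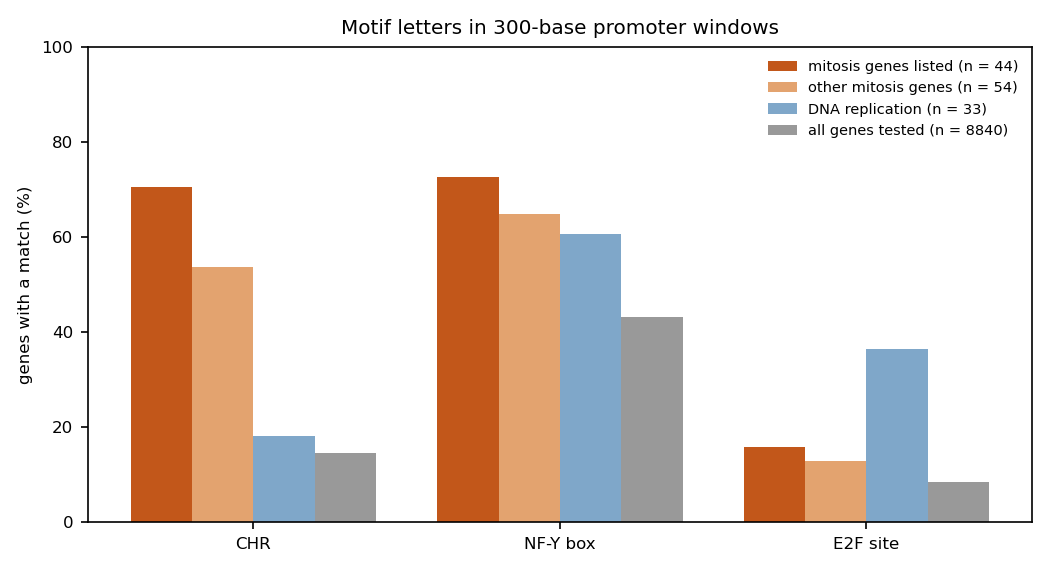
Share of genes (y axis, percent) whose 300-base promoter window holds the letters of the CHR element (TTTGAA), the NF-Y box or an E2F site (x axis), for mitosis genes, other mitosis genes, DNA replication genes and all genes tested. The CHR bar is 70.5% in mitosis genes and 14.7% in all genes tested, and the E2F bar is highest in DNA replication genes (36.4%).

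CDK1, its cyclins and its regulators had 4 lower and 4 not passing of 8, and 7 lower with the replicate block. Ccna2, which encodes cyclin A2 and acts from S phase into mitosis, was at 9.31, 5.77, 1.37 and 1.71 FPKM in Ebi3-Treg 1 to 4, against 22.3, 18.8, 14.2 and 18.1 FPKM in Blimp1-Treg 1 to 4. Every Ebi3-Treg library was below every Blimp1-Treg library, and Ccna2 had the largest decrease of the 51 genes in this fit (log2 fold change -2.06, SE 0.31, adjusted p = 0.00822). Ccnb2, which encodes cyclin B2, was at 6.87, 10.5, 3.70 and 3.64 FPKM in Ebi3-Treg 1 to 4, against 19.7, 25.8, 14.6 and 14.3 FPKM in Blimp1-Treg 1 to 4. These groups did not overlap either (log2 fold change -1.52, SE 0.19, adjusted p = 0.00406). Cdk1 (ENSMUSG00000019942), the kinase of mitotic entry, averaged 6.85 ± 5.09 FPKM in the Ebi3-Treg libraries, against 17.6 ± 6.38 FPKM in the Blimp1-Treg libraries (SD, n = 4 each), and its log2 fold change was -1.44 (SE 0.24, adjusted p = 0.0125). Its ranges met across tables, with Ebi3-Treg at 2.01 to 12.4 FPKM and Blimp1-Treg at 10.9 to 24.8 FPKM, but not within either table. Ccnb1, the other cyclin B gene, was lower (log2 fold change -1.25, adjusted p = 0.0371). Of the 8 fits that each left out 1 library, Ccnb1 lost its call in 7 (adjusted p up to 0.136) and Cdk1 in 3. The CDK1-activating phosphatase genes did not pass, with log2 fold changes of -1.05 for Cdc25b (adjusted p = 0.149, with 0.00575 under the block) and -0.43 for Cdc25c (adjusted p = 0.194). Cdc25b had the highest mean FPKM of this class in Blimp1-Treg, with libraries at 19.6 to 47.6 FPKM in the Ebi3-Treg libraries, against 32.1 to 113 FPKM in the Blimp1-Treg libraries, and the ranges overlapped. Cks1b and Cks2, which encode small CDK-binding proteins, had log2 changes of -0.61 and -0.56 (adjusted p = 0.241 and 0.532), and both were called with the block (0.0246 and 0.0402).

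**Figure D3:**
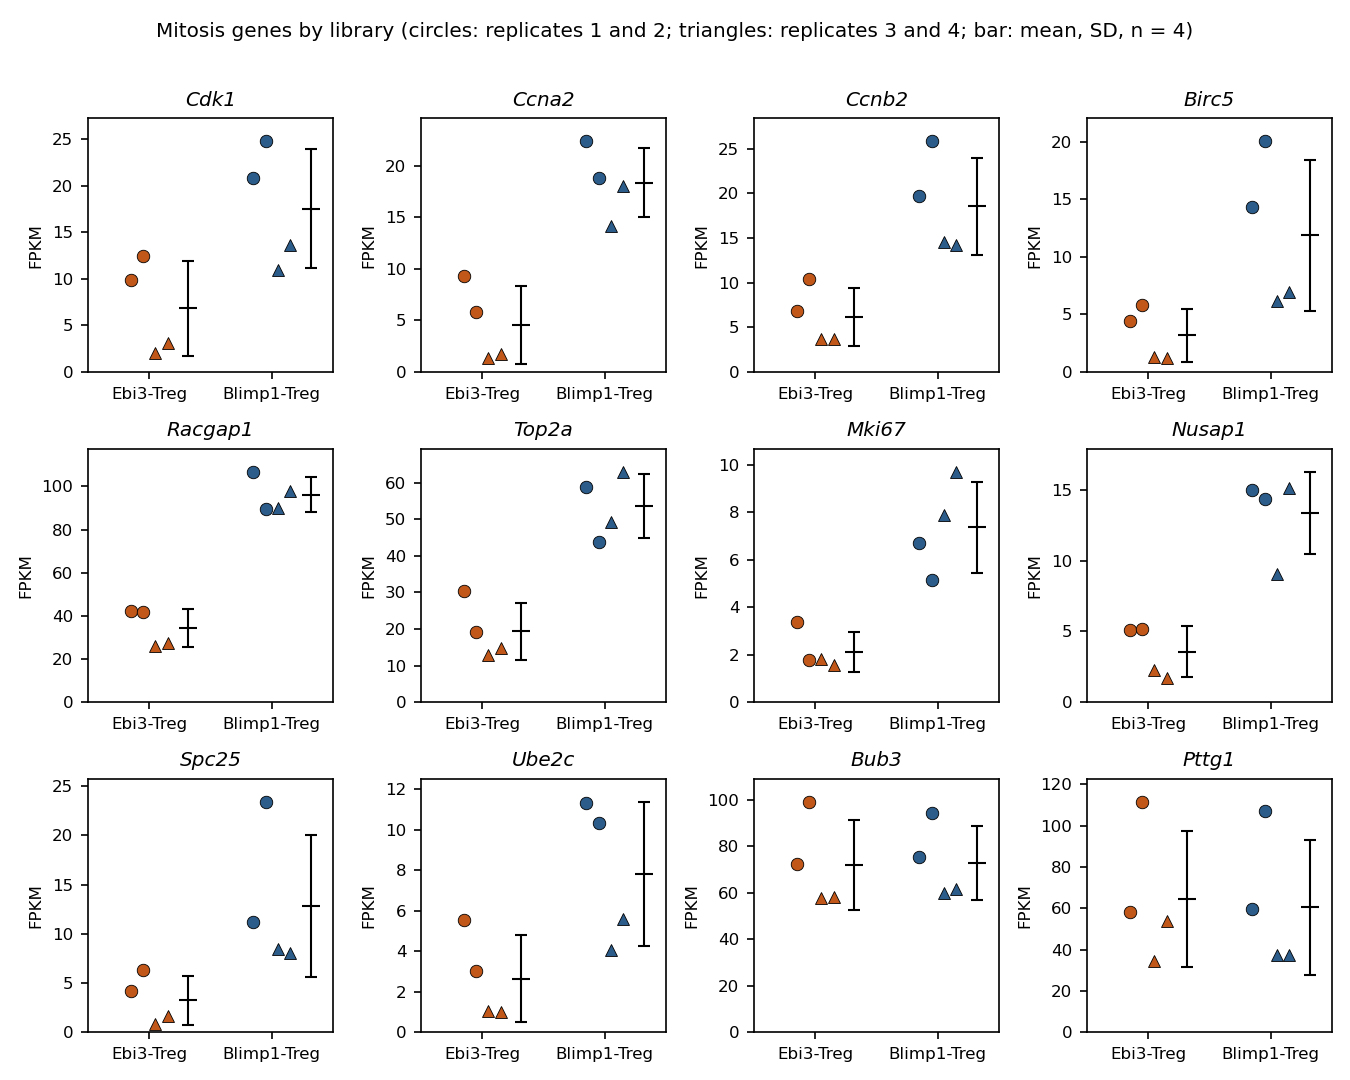
FPKM (y axis, linear, from 0) of 12 mitosis genes in each Ebi3-Treg and Blimp1-Treg library (x axis), circles for replicates 1 and 2 and triangles for replicates 3 and 4, with the mean and SD (n = 4) beside them. Ccna2, Ccnb2, Racgap1 and Top2a do not overlap between populations, whereas Bub3 and Pttg1 do.

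The Polo and Aurora A kinases, which mature the centrosomes and build the spindle poles, had 0 lower and 3 not passing of 3, and 2 lower with the block. Plk1, the Polo kinase of mitosis, was at 7.33, 4.16, 1.61 and 1.82 FPKM in Ebi3-Treg 1 to 4, against 12.6, 7.29, 8.60 and 9.79 FPKM in Blimp1-Treg 1 to 4. The log2 fold change was -1.30 (SE 0.31) with an adjusted p of 0.0509, just outside the threshold, and 0.0133 with the block. Ebi3-Treg 1 (7.33 FPKM) lay above Blimp1-Treg 2 (7.29 FPKM). Aurka was at 8.36, 13.9, 4.11 and 4.83 FPKM in Ebi3-Treg 1 to 4, against 13.9, 14.5, 9.49 and 12 FPKM in Blimp1-Treg 1 to 4, for which the log2 fold change was -0.73 (adjusted p = 0.121, and 0.0353 under the block). Ebi3-Treg 2 was close to Blimp1-Treg 2, and the populations overlapped across the tables but not within either. Plk4, which starts centriole duplication, had a log2 change of -0.25 (adjusted p = 0.405), at 9.57 to 12.1 FPKM in the Ebi3-Treg libraries, against 11.5 to 14.3 FPKM in the Blimp1-Treg libraries.

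The chromosomal passenger complex, in which Aurora B corrects faulty attachments with survivin, INCENP and borealin, had 3 lower and 1 not passing of 4, and 4 lower with the block. Birc5, which encodes survivin, was at 4.47, 5.81, 1.26 and 1.25 FPKM in Ebi3-Treg 1 to 4, against 14.4, 20.0, 6.15 and 6.96 FPKM in Blimp1-Treg 1 to 4. All Ebi3-Treg libraries were below all Blimp1-Treg libraries (log2 fold change -1.65, SE 0.17, adjusted p = 0.00211). The log2 fold change of Birc5 was -1.56 in replicates 1 and 2 and -1.74 in replicates 3 and 4. Aurkb was at 10.9, 7.80, 3.70 and 4.51 FPKM in Ebi3-Treg 1 to 4, against 27.1, 18.3, 16.6 and 24.3 FPKM in Blimp1-Treg 1 to 4. The groups did not overlap (log2 fold change -1.62, SE 0.26, adjusted p = 0.00985). Incenp was lower (log2 fold change -0.93, adjusted p = 0.0341), and Cdca8, which encodes borealin, had a log2 change of -1.09 (adjusted p = 0.0534, with 0.00515 under the block). The call of Incenp was lost in 6 of the 8 fits that each left out 1 library (adjusted p up to 0.135).

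Spindle checkpoint genes had 1 lower and 4 not passing of 5, and 3 lower with the block. Bub1, a checkpoint kinase of the kinetochore, was at 5.08, 3.56, 2.18 and 2.08 FPKM in Ebi3-Treg 1 to 4, against 11.8, 8.70, 9.16 and 13.3 FPKM in Blimp1-Treg 1 to 4. No libraries overlapped (log2 fold change -1.51, SE 0.25, adjusted p = 0.0111). Bub1b, which encodes BubR1 of the mitotic checkpoint complex, was at 14.2, 8.77, 5.22 and 7.50 FPKM in Ebi3-Treg 1 to 4, against 21.1, 12.7, 18.0 and 21.6 FPKM in Blimp1-Treg 1 to 4, and the log2 fold change was -1.01 (adjusted p = 0.0901, and 0.017 under the block). Ebi3-Treg 1 exceeded Blimp1-Treg 2, so the ranges overlapped. Bub3, the WD-repeat partner of both proteins, was at 72.3, 99.0, 57.8 and 58.0 FPKM in Ebi3-Treg 1 to 4, against 75.5, 94.5, 59.9 and 61.8 FPKM in Blimp1-Treg 1 to 4. Its log2 fold change was -0.03 (SE 0.14, adjusted p = 0.954). Mad2l1, which encodes MAD2, had a log2 change of -0.65 (adjusted p = 0.12, with 0.00591 under the block), and the kinase gene Ttk had a log2 change of -0.72 (adjusted p = 0.18) at no more than 4.01 FPKM in any library.

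Of the 3 genes around the anaphase-promoting ubiquitin ligase, 1 was lower and 2 did not pass, and 2 were lower with the block. Ube2c, its ubiquitin-conjugating enzyme, was at 5.54, 3.04, 1.05 and 1.0 FPKM in Ebi3-Treg 1 to 4, against 11.3, 10.4, 4.05 and 5.60 FPKM in Blimp1-Treg 1 to 4, and the log2 fold change was -1.36 (SE 0.21, adjusted p = 0.00896). The libraries did not overlap within either table. Cdc20, its mitotic activator, was at 22.6, 19.0, 10.3 and 13.1 FPKM in Ebi3-Treg 1 to 4, against 31.4, 20.8, 23.9 and 23.2 FPKM in Blimp1-Treg 1 to 4 (log2 fold change -0.62, adjusted p = 0.146, with 0.0369 under the block). The populations overlapped in replicates 1 and 2. Pttg1, which encodes securin, the inhibitor of separase, was the 1 tested gene with a positive log2 fold change (0.10, SE 0.27, adjusted p = 0.925), and the sign turned without Ebi3-Treg 2, Ebi3-Treg 4 or Blimp1-Treg 1. It was at 58.1, 112, 34.7 and 53.9 FPKM in Ebi3-Treg 1 to 4, against 59.6, 107, 37.5 and 37.7 FPKM in Blimp1-Treg 1 to 4, and overlapped in both tables. Replicate 2 held the highest library of both populations.

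Centromere and kinetochore genes had 6 lower and 2 not passing of 8. All 4 subunits of the NDC80 complex, which grips spindle microtubules, were lower. Spc25 was at 4.25, 6.31, 0.875 and 1.63 FPKM in Ebi3-Treg 1 to 4, against 11.2, 23.4, 8.50 and 8.07 FPKM in Blimp1-Treg 1 to 4. The populations did not overlap (log2 fold change -1.77, SE 0.28, adjusted p = 0.00935). The other subunits were lower too, at log2 fold changes of -1.16 for Nuf2, -0.96 for Ndc80 and -0.88 for Spc24 (adjusted p = 0.0203, 0.0322 and 0.0228). Of the 8 fits that each left out 1 library, Nuf2 lost its call in 5, Ndc80 in 6 and Spc24 in 6. On the FPKM scale, which is per length, the subunits averaged 3.27 ± 2.49, 2.33 ± 1.11, 4.21 ± 2.02 and 3.10 ± 1.52 in Ebi3-Treg and 12.8 ± 7.21, 6.13 ± 0.939, 8.96 ± 3.42 and 6.42 ± 2.22 in Blimp1-Treg for Spc25, Nuf2, Ndc80 and Spc24 (SD, n = 4 each). Cenpf, a large protein of the outer kinetochore, was at 1.57, 0.960, 0.923 and 0.682 FPKM in Ebi3-Treg 1 to 4, against 3.47, 3.55, 3.31 and 4.69 FPKM in Blimp1-Treg 1 to 4, without overlap (log2 fold change -1.23, SE 0.20, adjusted p = 0.011). Ebi3-Treg 2 to 4 were under 1 FPKM, so Cenpf met the filter on low values through its Blimp1-Treg libraries. The kinesin gene Cenpe was lower (log2 fold change -0.84, adjusted p = 0.0462), a call that was lost when any 1 of the 8 libraries was left out (adjusted p up to 0.152). Cenpa, which encodes the histone H3 variant of centromeres, had a log2 change of -0.59 at 37.0 to 88.3 FPKM in the Ebi3-Treg libraries, against 59.6 to 116 FPKM in the Blimp1-Treg libraries (adjusted p = 0.182, with 0.00367 under the block). The scaffold gene Knl1 did not pass (-0.75, adjusted p = 0.243), and its library Ebi3-Treg 3 (2.2 FPKM) exceeded Blimp1-Treg 3 (1.60 FPKM).

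Spindle motors and assembly factors had 5 lower and 1 not passing of 6, and 6 lower with the block. Nusap1, which bundles microtubules near chromosomes, was at 5.08, 5.17, 2.28 and 1.72 FPKM in Ebi3-Treg 1 to 4, against 15.0, 14.4, 9.03 and 15.1 FPKM in Blimp1-Treg 1 to 4. The populations were apart in every library (log2 fold change -1.72, SE 0.23, adjusted p = 0.00519). Hmmr, which encodes a spindle-associated hyaluronan receptor, was at 5.34, 3.27, 1.03 and 1.14 FPKM in Ebi3-Treg 1 to 4, against 10.7, 9.86, 4.93 and 7.43 FPKM in Blimp1-Treg 1 to 4 (log2 fold change -1.44, SE 0.23, adjusted p = 0.0101). Ebi3-Treg 1 lay above Blimp1-Treg 3, and within tables there was no overlap. The kinesin genes Kif11, which pushes spindle poles apart, and Kif22, which moves chromosome arms, were lower, as was Tpx2, the activator of Aurora A, and the log2 fold changes were -1.43, -1.36 and -1.38 (adjusted p = 0.0148, 0.0128 and 0.0328). Tpx2 lost its call in 6 of the 8 fits that each left out 1 library, and Kif11 and Kif22 in 4 each. Kif2c, a microtubule-depolymerising kinesin, had a log2 change of -1.08 (adjusted p = 0.102, with 0.0304 under the block).

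Of 7 genes of the central spindle and cytokinesis, 6 were tested, with 4 lower and 2 not passing. Racgap1, which with the kinesin Kif23 forms centralspindlin, was at 42.3, 41.6, 26.0 and 27.4 FPKM in Ebi3-Treg 1 to 4, against 107, 89.6, 90.1 and 98.1 FPKM in Blimp1-Treg 1 to 4. It had the smallest adjusted p of the 51 genes (log2 fold change -1.49, SE 0.16, adjusted p = 0.0021), and the populations were well apart. Kif23 was lower (log2 fold change -1.17, adjusted p = 0.0154) at a much lower level, 2.58 ± 1.14 FPKM in the Ebi3-Treg libraries, against 6.76 ± 0.202 FPKM in the Blimp1-Treg libraries (SD, n = 4 each). The RNA level of Kif23 was thus below that of Racgap1 in both populations, on a scale per length. Protein of the partners was not measured here. Prc1, which crosslinks the antiparallel microtubules of the midzone, was at 7.05, 5.34, 2.72 and 2.39 FPKM in Ebi3-Treg 1 to 4, against 18.2, 14.2, 12 and 15.3 FPKM in Blimp1-Treg 1 to 4, without overlap (log2 fold change -1.65, SE 0.22, adjusted p = 0.00519). The kinesin gene Kif4 was lower (log2 fold change -1.44, adjusted p = 0.0191). With 1 library left out at a time, Kif4 lost its call in 6 of 8 fits and Kif23 in 4. Ect2, the activator of RhoA at the cleavage site, had a log2 change of -0.71 (adjusted p = 0.179, with 0.0305 under the block). Kif20a had a log2 change of -0.44 (adjusted p = 0.315), and 29.3% of its exon bases lie over exons of Cdc23 on the other strand, which was at 37.5 to 73.9 FPKM. Anln, which encodes the ring scaffold anillin, was too low to be tested, at 0.649, 0.293, 0.346 and 0.200 FPKM in Ebi3-Treg 1 to 4, against 1.27, 0.482, 0.931 and 1.12 FPKM in Blimp1-Treg 1 to 4. The populations overlapped within replicates 1 and 2 and not within replicates 3 and 4.

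Genes of mitotic chromosome structure had 4 lower and 2 not passing of 6. Top2a, which encodes topoisomerase II alpha, was at 30.4, 19.3, 13.0 and 14.8 FPKM in Ebi3-Treg 1 to 4, against 58.8, 43.7, 49.4 and 63.0 FPKM in Blimp1-Treg 1 to 4. Mki67, which encodes the chromosome surface protein Ki-67, was at 3.37, 1.76, 1.80 and 1.55 FPKM in Ebi3-Treg 1 to 4, against 6.72, 5.16, 7.88 and 9.71 FPKM in Blimp1-Treg 1 to 4. Neither gene overlapped between populations, and their log2 fold changes were -1.48 (SE 0.25, adjusted p = 0.0122) and -1.43 (SE 0.25, adjusted p = 0.016). Of the condensin I subunits, Ncaph and Ncapg were lower (log2 fold changes -1.55 and -1.14, adjusted p = 0.021 and 0.0163), whereas Smc2 had a log2 change of -0.59 (adjusted p = 0.147, with 0.00573 under the block) and Ncapd2 of -0.33 (adjusted p = 0.794). In the 8 fits that each left out 1 library, Ncaph lost its call in 6, Mki67 in 4, Top2a in 3 and Ncapg in 2. Ncapd2 was at 21.9 to 64.1 FPKM in the Ebi3-Treg libraries, against 22.6 to 75.8 FPKM in the Blimp1-Treg libraries, lowest in replicate 2 of both.

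The transcription factors of these genes did not pass. Foxm1 was at 5.92, 2.09, 2.97 and 3.88 FPKM in Ebi3-Treg 1 to 4, against 10.7, 2.99, 6.94 and 13.0 FPKM in Blimp1-Treg 1 to 4 (log2 fold change -0.91, SE 0.42, adjusted p = 0.307, with 0.0184 under the block). Mybl2, which encodes B-Myb, was at 11.6, 5.54, 4.51 and 3.45 FPKM in Ebi3-Treg 1 to 4, against 17.3, 9.13, 10.5 and 16.3 FPKM in Blimp1-Treg 1 to 4 (log2 fold change -1.05, SE 0.33, adjusted p = 0.124, with 0.0211 under the block). Both were lower in Ebi3-Treg for each of the 4 replicate numbers, but Foxm1 was lowest in replicate 2 of both populations, and the ranges of both genes overlapped.

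The size of the difference varied with the replicate number. The median ratio of Ebi3-Treg over Blimp1-Treg FPKM over the 51 genes was 0.543, 0.501, 0.290 and 0.280 for replicate numbers 1 to 4. The lowest ratio was 0.311 for number 1 (Birc5), 0.269 for number 2 (Spc25), 0.0967 for number 3 (Ccna2) and 0.0608 for number 4 (Kif4). Of the 51 genes 48 were lower in Ebi3-Treg for all 4 numbers, where 16.3% of all genes tested were. The populations did not overlap over all 8 libraries for 23 genes (4.5% of all genes tested), nor within either table for 33 (7.3%). Within replicates 1 and 2 alone they did not overlap for 34 (10.4%), and within replicates 3 and 4 alone for 48 (25.3%). Replicates 3 and 4 alone called 33 of the 51 lower and 0 higher (5.47% and 5.51% of all genes tested), and replicates 1 and 2 alone called 0 with limma, where 0.0% of all genes were called. At an unadjusted p under 0.05, replicates 1 and 2 had 17 of the 51, against 5.76% of all genes, and with the replicate block they called 40 lower and 0 higher (9.26% and 14.0%). The median log2 fold change was -0.78 in replicates 1 and 2 and -1.46 in replicates 3 and 4. It was more negative in replicates 3 and 4 for 48 of the 51 genes, against 59.8% of all genes tested. The test of this difference itself called 0 of the 51 with limma (0.0% of all genes tested), and 0 with the block (0.106%), and 5 (Ccna2, Tpx2, Cdk1, Plk1 and Kif23) had an unadjusted p under 0.05, where 1.65% of all genes did.

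**Figure D4:**
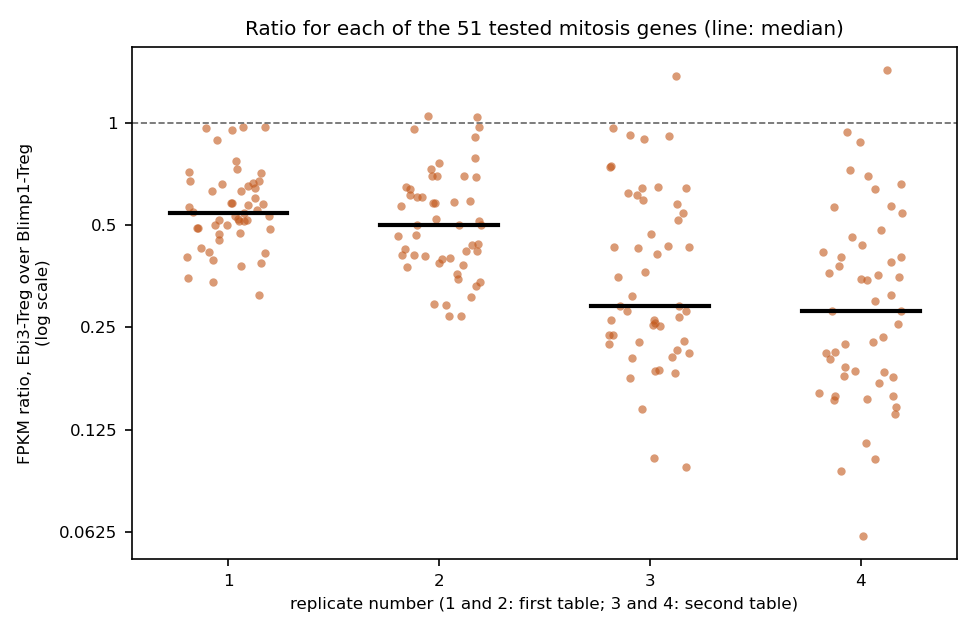
Ratio of Ebi3-Treg over Blimp1-Treg FPKM (y axis, log scale) for each of the 51 tested mitosis genes at each replicate number (x axis), with a line at the median. The medians are 0.543, 0.501, 0.290 and 0.280, and 51, 49, 50 and 50 of the 51 genes lie below 1.

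The summed level of the 52 genes was 719, 759, 418 and 460.2 FPKM in Ebi3-Treg 1 to 4, against 1155, 1204, 917 and 1046 FPKM in Blimp1-Treg 1 to 4. These groups did not overlap. The number of calls was lowest without a library of the second table. Without each library in turn 11 to 30 genes were called lower and 0 higher, with 14 without Ebi3-Treg 3, 11 without Ebi3-Treg 4, and 13 without Blimp1-Treg 3 or Blimp1-Treg 4. In the same fits 1.3% to 3.22% of all genes tested were lower. Leaving out Ebi3-Treg 3 or 4 gave 1.55% or 1.43%, and leaving out Blimp1-Treg 3 or 4 gave 1.54% or 1.3%. Of the 28 genes, 11 stayed called in all 8 of these fits, namely Ccna2, Ccnb2, Birc5, Aurkb, Ube2c, Spc25, Cenpf, Nusap1, Hmmr, Racgap1 and Prc1, and 17 lost the call in at least 1, with adjusted p up to 0.152. Without both libraries numbered 1, which had the most B cell transcripts, 38 genes were lower (6.99% of all genes tested) with a median log2 fold change of -1.21. Without both libraries numbered 2, 40 were lower (6.94%) with a median of -1.20.

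Other cells that divide in lymph nodes were looked for by their markers. Of 5 germinal centre B cell markers the sum was lower in Ebi3-Treg for each number, at 8.41 to 19.3 FPKM in the Ebi3-Treg libraries, against 12.1 to 24.5 FPKM in the Blimp1-Treg libraries. S1pr2 made up most of it, at 7.85 to 17.8 FPKM in the Ebi3-Treg libraries, against 11.9 to 24.3 FPKM in the Blimp1-Treg libraries (adjusted p = 0.215, with 0.00716 under the block), and its part in the mitotic difference was not tested. Summed over 5 plasma cell markers, levels were 11.0 to 44.4 FPKM in the Ebi3-Treg libraries, against 6.01 to 25.3 FPKM in the Blimp1-Treg libraries, and of these Jchain was at 14.5, 0.292, 0.844 and 0.824 FPKM in Ebi3-Treg 1 to 4, against 12.5, 0.247, 6.02 and 11.8 FPKM in Blimp1-Treg 1 to 4. Derl3 of the same list was at 9.77, 7.90, 10.0 and 8.37 FPKM in Ebi3-Treg 1 to 4, against 1.91, 1.61, 1.87 and 2.85 FPKM in Blimp1-Treg 1 to 4, and was the 1 plasma cell marker that passed (log2 fold change 1.72, adjusted p = 0.00207). Jchain was thus higher in Blimp1-Treg in replicates 3 and 4 and Derl3 higher in Ebi3-Treg in every library, and the part of either in the mitotic difference was not tested. The 6 B cell markers summed higher in Ebi3-Treg for each of the 4 numbers, opposite to the mitosis genes. Myeloid markers summed to 214, 261, 70.4 and 72.3 FPKM in Ebi3-Treg 1 to 4, against 224, 279.6, 71.5 and 88.5 FPKM in Blimp1-Treg 1 to 4, higher in replicates 1 and 2 of both populations. The members of this list differed in direction. Cst3 was lower in Ebi3-Treg for each of the 4 numbers, at 46.8 to 163 FPKM in the Ebi3-Treg libraries, against 63.0 to 263 FPKM in the Blimp1-Treg libraries, whereas Lyz2 was higher for each, at 99.1, 91.1, 8.00 and 20.4 FPKM in Ebi3-Treg 1 to 4, against 29.9, 7.90, 3.74 and 8.44 FPKM in Blimp1-Treg 1 to 4 (adjusted p = 0.181 and 0.092, with 0.0218 and 0.016 under the block). Adgre1 was higher in Ebi3-Treg without overlap, at 0.448 to 1.80 FPKM in the Ebi3-Treg libraries, against 0.0322 to 0.192 FPKM in the Blimp1-Treg libraries, and was too low to be tested. Summed thymocyte markers stayed at 1.08 FPKM or less and erythroid markers at 1.47 FPKM or less in all 8 libraries.

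Mitosis genes outside the 52 were also lower in part. Of 70 listed, 67 were tested, with 18 lower, 1 higher and 48 not passing, and a median log2 fold change of -0.58. Among all genes tested 2.93% were lower and 3.37% higher. With the block, 30 were lower and 1 higher, where 8.94% and 13.5% of all genes were. Without each library in turn 7 to 19 were lower, where 1.3% to 3.22% of all genes were. Pbk, a kinase gene of dividing cells, was at 4.03, 3.05, 1.22 and 1.84 FPKM in Ebi3-Treg 1 to 4, against 12.8, 13.3, 7.85 and 13.0 FPKM in Blimp1-Treg 1 to 4 (log2 fold change -1.89, SE 0.22, adjusted p = 0.00309). Cep55, which acts in the final cut between daughter cells, Esco2, which acetylates cohesin in S phase, and Cdca3 were lower as well (log2 fold changes -1.30, -1.74 and -1.14, adjusted p = 0.00415, 0.00442 and 0.0081). The 1 gene that was higher, named after its values were seen, was Smc4, the condensin partner of Smc2. Smc4 was at 406, 598, 472 and 533 FPKM in Ebi3-Treg 1 to 4, against 225, 365, 195 and 199.6 FPKM in Blimp1-Treg 1 to 4, without overlap (log2 fold change 1.06, SE 0.22, adjusted p = 0.0275). The call was lost in 6 of the 8 fits that each left out 1 library (adjusted p up to 0.111). The summed level of the 70 genes, which includes Smc4, was 1191, 1271, 1105 and 1198 FPKM in Ebi3-Treg 1 to 4, against 1167, 1239.8, 1057 and 1115 FPKM in Blimp1-Treg 1 to 4, and was higher in Ebi3-Treg for each number. For each number the excess of Smc4 was larger than that of the sum, so without Smc4 the sum is lower in Ebi3-Treg. The median level of the 70 genes was 3.92, 3.14, 2.05 and 1.82 FPKM in Ebi3-Treg 1 to 4, against 6.63, 6.06, 4.67 and 5.53 FPKM in Blimp1-Treg 1 to 4. The level of Smc4 exceeded those of Smc2, Ncaph and Ncapg in each library, on a scale per length.

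Lists of the ligase core, of cohesin and of the DREAM complex had medians close to 0. The 16 core subunits and partners of the anaphase-promoting ubiquitin ligase had 0 lower and 0 higher with limma (median log2 fold change 0.06), with 1 at an unadjusted p under 0.05, where 18.6% of all genes tested were. The 11 cohesin genes had 0 and 0 (median 0.02), with 1 at an unadjusted p under 0.05, and the 11 DREAM and MuvB genes had 0 and 0 (median 0.00), with 2. With the block, Cdc23 of the ligase was higher (adjusted p = 0.0195), and of the DREAM genes Rbl1, which encodes p107, was lower (0.0146) and E2f5 higher (0.0193). In that fit 8.94% of all genes tested were lower and 13.5% higher, so such single calls do not mark out these lists. DNA replication genes had 8 lower, 0 higher and 32 not passing of 40 tested, and 18 lower with the block, and a median log2 fold change of -0.41. Among all genes tested 2.93% were lower, and 8.94% with the block. Without each library in turn 2 to 12 replication genes were lower, where 1.3% to 3.22% of all genes were. Mcm6, a subunit of the replicative helicase, was at 125 to 180.1 FPKM in the Ebi3-Treg libraries, against 281 to 338 FPKM in the Blimp1-Treg libraries (log2 fold change -0.99, adjusted p = 0.00726), and Rrm2, Cdc6 and Cdt1 were lower (log2 fold changes -1.76, -1.19 and -0.58, adjusted p = 0.00124, 0.0217 and 0.0306).

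**Figure D5:**
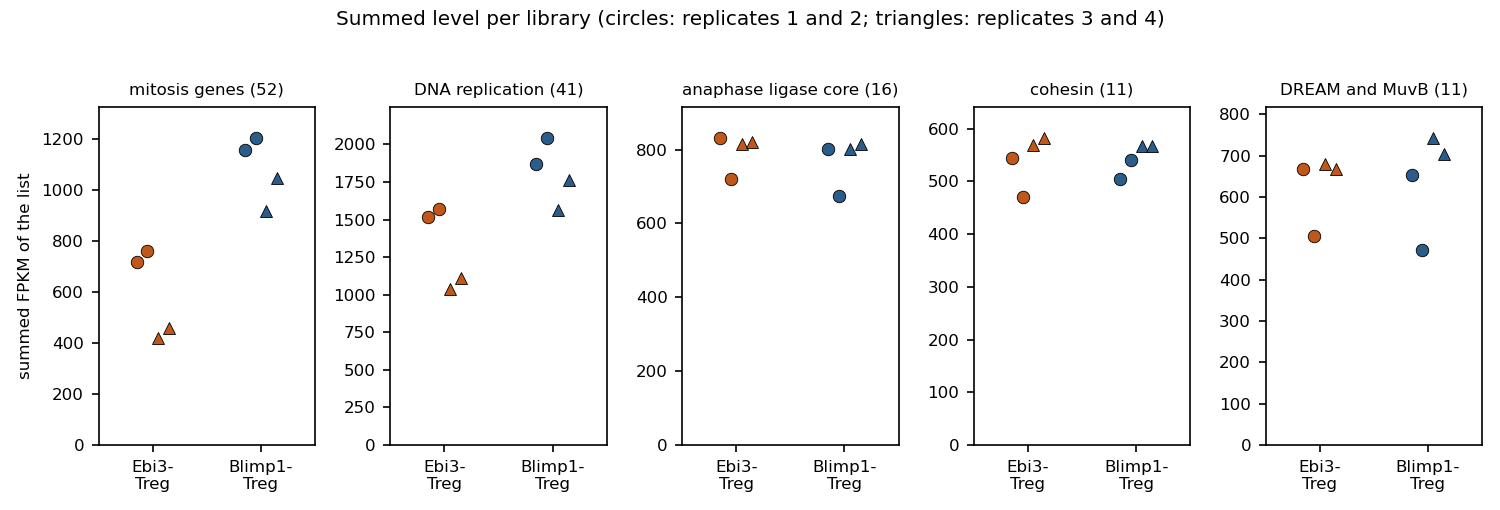
Summed FPKM (y axis, linear, from 0) of each gene list in each Ebi3-Treg and Blimp1-Treg library (x axis), circles for replicates 1 and 2 and triangles for replicates 3 and 4. Mitosis genes sum to 418 to 759 FPKM in the Ebi3-Treg libraries, against 917 to 1204 FPKM in the Blimp1-Treg libraries, whereas the cohesin sums overlap.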

How the data were processed

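The deposited values are FPKM, which the authors calculated for each gene and placed in 2 tables. According to the labels' protocols, beads enriched CD4 T cells ahead of a sort to over 90% purity, and 10 pg to 10 ng of RNA entered the SMART-Seq v4 kit. The tools listed in the submitters' processing notes are TopHat2 2.0.12, Bowtie2 2.2.3 and HTSeq 0.6.1, with mm9 as the build; their order, the annotation and how reads were counted is not given in the sources used here. Each library was taken from the column named in its title. The 47069 Ensembl genes in both tables were kept and 46488 had a symbol in the gene name table. Unannotated features (640 and 612) were left out. Depth was read from the most frequent product of FPKM and GRCm38 exon length in a library, taken as 1 read.

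The 12273 genes that reached 1 FPKM in 4 or more libraries were fitted with limma 3.58.1 in R 4.3.3 on log2(FPKM + 1), with population and table as terms and a variance trend. The scale understates changes of low genes. No tested mitosis gene was below 1 FPKM in every Ebi3-Treg library, and 44 of the 51 reached 1 FPKM in every library. Alternatives were another pseudocount, filters, scalings, no trend, no table term, the replicate block, left-out libraries and single tables. Levels set side by side across tables rest on separate scaling of each library. Whether replicates are separate animals is not said, so a p-value reflects only how these samples spread, which may be technical.

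Same-numbered libraries deviated together from their population means (r = 0.62, 0.89, 0.53 and 0.54 across genes for numbers 1 to 4). For numbers 1 and 2 the correlation with the other number of the same table was -0.27 and -0.02, so the data pair these. For numbers 3 and 4 the correlation with the other number was as high as with the same number (0.56 and 0.61). Relative to each table's means, same-numbered libraries correlated at 0.85 in replicates 1 and 2 and at -0.08 in replicates 3 and 4. The data thus do not pair numbers 3 and 4, although the replicate block treats all 4 numbers as pairs.

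Full values are given for the 2 members of each role with the smallest p, for Mki67, Top2a, Foxm1 and Mybl2, and for members of opposite sign or too low to test; of other lists up to 4 genes are named. Other values named, such as those of Bub3 and of single marker genes, were chosen after they were seen. The members, lists and tests were chosen with earlier results of these data known. Reads of 6 members (Ccna2, Cdc25c, Kif20a, Kif4, Ncapg and Prc1) could be shared, because at least 10% of their exon bases lie over a gene measured on the other strand, and the kit is not stated to mark the strand. Annotated copies exist for Ccnb1, Ccnb2, Cks1b, Kif22 and Kif4. Promoters come from RefSeq (GRCm38.p6). Some marker genes are not reported here.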

Additional observations from a re-analysis of the deposited data

Results flagged for a closer look

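In 5 of 104 groups of 4 libraries, 1 library stood far from the other 3 for a mitosis gene, where chance gives about 1 in 20 groups, or 5.2. Cdc25c was at 1.21 FPKM in Ebi3-Treg 1, against 0.956 to 0.970 FPKM in the other 3 Ebi3-Treg libraries. Mki67 was at 3.37 FPKM in Ebi3-Treg 1, against 1.55 to 1.80 FPKM in the other 3. Incenp was at 16.0 FPKM in Blimp1-Treg 2, against 24.4 to 25.4 FPKM in the other Blimp1-Treg libraries. Cenpf was at 4.69 FPKM in Blimp1-Treg 4, against 3.31 to 3.55 FPKM in the others, and Nusap1 at 9.03 FPKM in Blimp1-Treg 3, against 14.4 to 15.1 FPKM. All 5 values left the populations without overlap in that gene.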

How the results depend on the processing

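The count of 28 mitosis genes lower in Ebi3-Treg stayed between 20 and 32 with the other pseudocount, filters and scalings and without the variance trend, with 0 higher. It was 15 without the table term, 43 with the replicate block, 11 to 30 without each library in turn, 38 and 40 without both libraries numbered 1 or 2, and 0 in replicates 1 and 2 alone. The cause was not tested. The median log2 fold change of mitosis genes, -1.09 over both tables, ran from -1.27 to -0.99 without each library and was -1.46 in replicates 3 and 4 alone and -0.78 in replicates 1 and 2 alone. Replicates 1 and 2 alone called 0 genes under each alternative except the replicate block, which called 40. Replicates 3 and 4 alone called 33 genes, with 3 to 20 without each library and 30 to 33 under the other alternatives. The log2 fold change of Bub3 ran from -0.131 to 0.0488 without each library, positive without Ebi3-Treg 1 or Blimp1-Treg 2, and was 0.00263 in replicates 1 and 2 alone. That of Pttg1 ran from -0.0630 to 0.309, negative without Ebi3-Treg 2, Ebi3-Treg 4 or Blimp1-Treg 1. With the replicate block no call of a mitosis gene was lost and 15 were gained, and at 1 FPKM or less the log2(FPKM + 1) scale and the depth limit what can be seen.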

Other observations

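The mean FPKM of replicates 1 and 2 was above that of replicates 3 and 4 for 47 of the 51 tested mitosis genes in Ebi3-Treg, with a median ratio of 2.03, and for 33 of the 51 in Blimp1-Treg, with a median ratio of 1.11. In Ebi3-Treg the summed level of the DNA replication genes was 1519, 1571, 1040.4 and 1109 FPKM in libraries 1 to 4, against 1871, 2045, 1562 and 1762 FPKM in Blimp1-Treg 1 to 4. The same sums for the core subunits of the anaphase-promoting ligase were 832, 721, 814 and 821 FPKM in Ebi3-Treg and 803, 674, 801 and 814 FPKM in Blimp1-Treg. Table, sex of the mice and separate scaling cannot be told apart as sources of a level that differs between tables.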
